A study of Mus musculus with 15 samples.

Results

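The genes described here are 9 members of the BCL2 pro-survival and PIM kinase families in the thymic T cells of Dicer-deficient and control mice. They are the pro-survival BCL2 family members Bcl2, Bcl2a1b, Bcl2a1c, Bcl2a1d, Bcl2l1, Mcl1 and Bcl2l2, and the serine/threonine kinases Pim1 and Pim2. They were found by symbol in the annotation of the array platform, with every probe that carries the symbol, among 16593 named genes in all. A probe was named for 8 of the 9, Bcl2a1b being the exception, and 7 of these were among the 6838 genes that passed the detection filter and were tested. Bcl2l1, which encodes BCL-XL, did not pass: its 3 probes were detected on 4, 0 and 0 of the 15 arrays.

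Pro-survival BCL2 proteins hold BAX and BAK in check at the outer mitochondrial membrane, and BH3-only proteins such as BIM relieve that hold. In thymocytes the family decides which cells live through selection and how long mature cells last. PIM kinases are active as soon as they are translated, so that their mRNA level sets much of their activity; STAT5 downstream of IL-2, IL-7 and IL-15 receptors induces them, and they phosphorylate regulators of translation and the BH3-only protein BAD. Dicer is the RNase that releases mature microRNAs from their hairpins.

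Expression was measured on 15 single-colour Illumina bead arrays, 3 for each of 5 groups sorted from thymi of 4-week-old mice. KO iNKT cells came from mice with the genotype Dicer lox/lox CD4-Cre +/- and were sorted as HSA low, TCRβ int and CD1d tetramer +, with no split by stage. WT iNKT cells of stage 3 carried the same floxed alleles without Cre (Dicer lox/lox CD4-Cre -/-) and the same 3 sort criteria, and were in addition NK1.1 + and CD44 high. WT iNKT cells of stage 1-2, of that same genotype, were NK1.1 - and CD44 high or low. KO T cells (CD4-Cre +/-) and WT T cells (CD4-Cre -/-) were sorted as HSA low, TCRβ + and CD1d tetramer -. The floxed Dicer alleles were thus shared by all groups, and the CD4 promoter switches Cre on in developing thymocytes. The iNKT lineage (invariant natural killer T) sees lipid antigens presented by CD1d. Because the KO iNKT cells were one pool, each WT stage served as their reference in turn. The labels do not tie the arrays of a group to separate animals, so p-values measure the spread between these samples, which may be technical.

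Between 29.2% and 40.8% of probes were detected per array. Arrays of a group correlated with each other at 0.939 to 0.984 over the 8906 named probes that passed the detection filter. WT stage 1-2 replicate 1 and WT stage 3 replicate 2 stood apart by their narrow range: their brightest probe reached 15373 and 14923 intensity units, against 21161 to 43881 on the other arrays. The probe for Dicer1, the targeted gene, averaged 6.33 ± 0.14 log2 in KO iNKT cells, 7.18 ± 0.50 at WT stage 3 and 6.25 ± 0.33 at WT stage 1-2 (SD, n = 3 each). It was lower in KO iNKT cells than in stage 3 cells (log2 difference -0.84, adjusted p = 0.017, limma) but not than in stage 1-2 cells (0.08, adjusted p = 0.91). In T cells it stood at 6.38 ± 0.25 in KO and 6.44 ± 0.15 in WT. Whether this probe lies in the deleted part of the gene is not known here, so it does not check the genotype. Markers of other cells also differed between the iNKT groups. A list of 12 tested granulocyte and other myeloid genes averaged 9.64 to 12.07 log2 on KO iNKT arrays, 5.74 to 7.05 on WT stage 3 arrays, 9.58 to 10.16 on WT stage 1-2 arrays, 4.45 to 4.49 on KO T arrays and 4.47 to 4.49 on WT T arrays. The 6 plasmacytoid dendritic cell genes averaged 9.29 to 9.77, 4.82 to 6.14 and 7.66 to 8.87 in KO iNKT, WT stage 3 and WT stage 1-2 cells, and 5.11 to 5.38 on the T cell arrays. The 4 genes of B cells and antigen-presenting cells averaged 9.16 to 10.68, 5.78 to 6.67 and 8.73 to 10.26 in the 3 iNKT groups in the same order. The 5 double-positive thymocyte genes averaged 6.92 to 7.57, 5.12 to 5.62 and 6.01 to 6.98. The 7 iNKT markers averaged 7.22 to 7.55 in KO iNKT, 9.13 to 9.18 in WT stage 3 and 7.34 to 7.72 in WT stage 1-2 cells, against 7.63 to 7.66 in KO T and 7.77 to 7.91 in WT T cells. Cd3e, Cd3g and Cd5 of this list are also in the T cell list, and averaged 11.66, 12.06 and 10.32 in WT T cells. Another of its genes, Klrb1c, encodes the NK1.1 that stage 1-2 cells were sorted to lack. The list mean therefore cannot show whether markers particular to iNKT cells were higher than in T cells. The iNKT label rests on the sort. The 7 T cell genes averaged 8.18 to 8.49 in KO iNKT, 7.79 to 7.92 in WT stage 3, 7.93 to 8.56 in WT stage 1-2, up to 10.22 in KO T and up to 10.01 in WT T cells. The 2 tested NK cell genes reached 9.04 to 9.67 in WT stage 3 cells, against 4.30 to 5.10 on all other arrays. Klrb1c, which encodes NK1.1, averaged 4.86 ± 0.49 in KO iNKT cells (detected on 1 of 3 arrays), against 8.46 ± 0.41 in WT stage 3 (3 of 3) and 4.73 ± 0.25 in WT stage 1-2 cells (1 of 3). Zbtb16, the defining transcription factor of the lineage, had no named probe. Myeloid cells themselves use Bcl2a1 genes, Mcl1 and Pim1. The part of these other cells in the results on iNKT groups was not tested, and in bulk samples fewer cells of a type and less RNA per cell cannot be told apart.

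**Figure D1:**
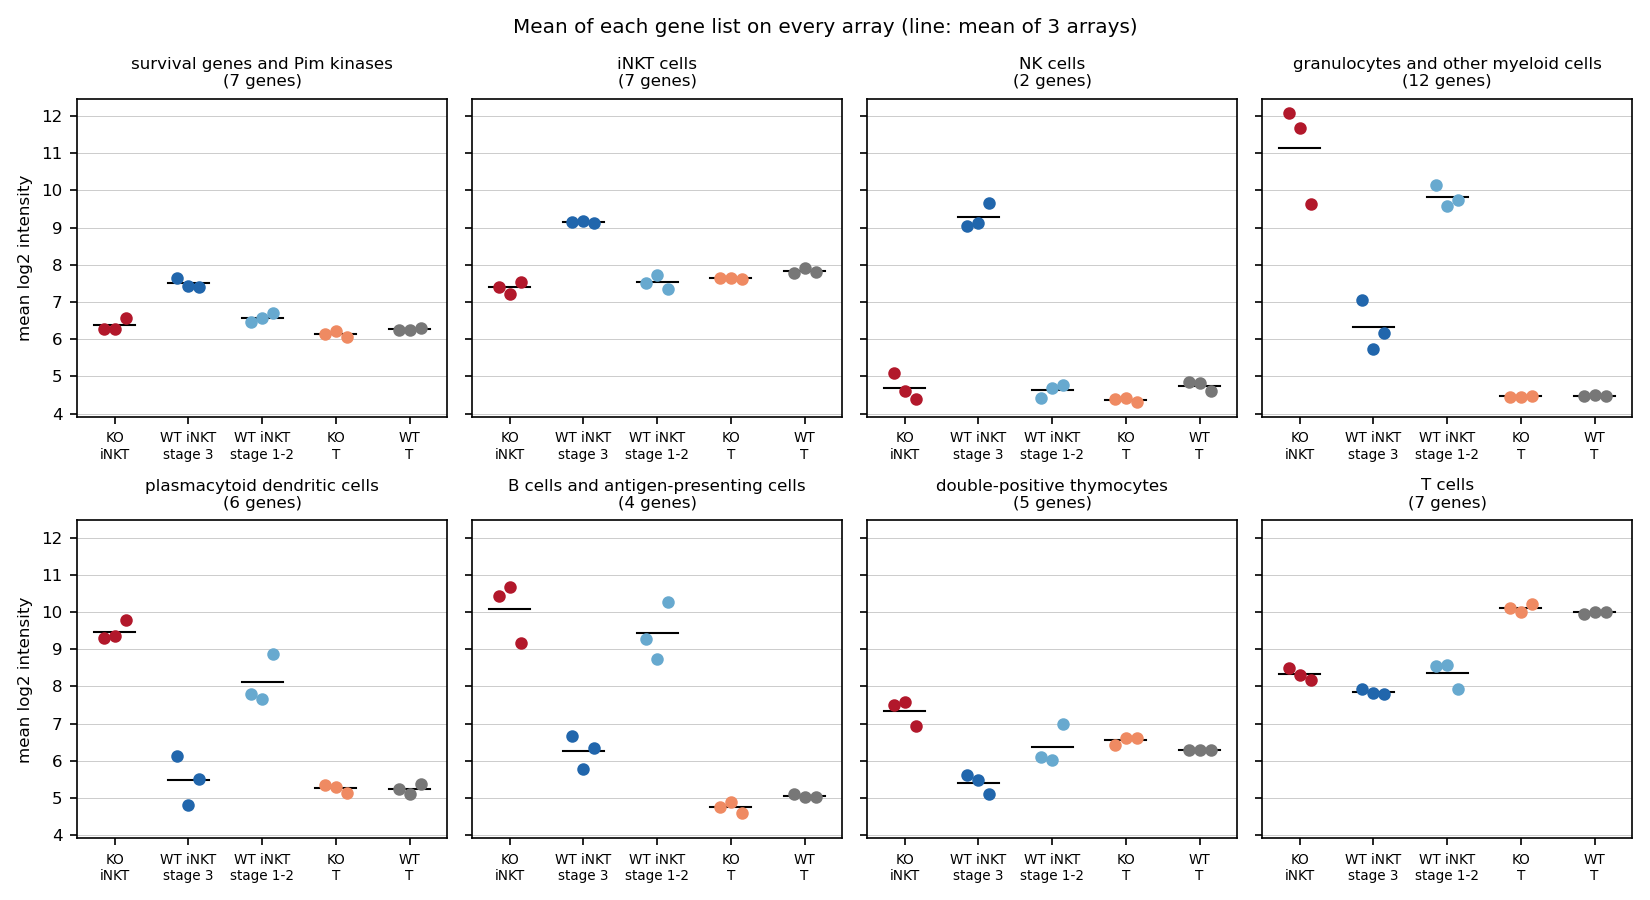
Each list's mean log2 intensity over its tested genes (vertical axis) on every array of the 5 groups (horizontal axis), with a line at the mean of 3 arrays. The myeloid list lies between 9.64 and 12.07 on KO iNKT arrays, from 5.74 to 7.05 on WT stage 3 arrays and from 9.58 to 10.16 on WT stage 1-2 arrays, while the T cell arrays lie from 4.45 to 4.49.

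The mouse Bcl2a1 genes are recent copies of one another on chromosome 9, and the sequences just before their starts show how alike they are. Over the 300 bases that RefSeq's promoter table gives for each (build GRCm38.p6), the best local alignment of Bcl2a1d with Bcl2a1b held 256 columns with 96.5% identity, that of Bcl2a1d with Bcl2a1c 190 columns with 93.2%, and that of Bcl2a1b with Bcl2a1c 234 columns with 95.7%. They are printed for this likeness, and because the probes of Bcl2a1c and Bcl2a1d moved together. The 250 bases before each start follow, with capitals on matches to GGTGTG, a core site that T-box factors such as T-bet bind, sought on both strands.
Bcl2a1d promoter (chr9:88731851-88732100, - strand): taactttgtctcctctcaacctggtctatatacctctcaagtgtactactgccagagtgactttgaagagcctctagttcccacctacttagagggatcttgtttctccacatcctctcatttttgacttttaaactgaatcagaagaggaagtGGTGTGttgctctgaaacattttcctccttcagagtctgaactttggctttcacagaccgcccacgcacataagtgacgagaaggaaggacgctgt
Bcl2a1b promoter (chr9:89199023-89199272, + strand): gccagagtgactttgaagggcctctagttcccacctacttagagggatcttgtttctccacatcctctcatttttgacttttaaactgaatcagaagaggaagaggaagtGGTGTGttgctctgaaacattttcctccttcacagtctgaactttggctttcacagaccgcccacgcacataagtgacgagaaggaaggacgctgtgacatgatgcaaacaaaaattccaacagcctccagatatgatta
Bcl2a1c promoter (chr9:114329885-114330134, + strand): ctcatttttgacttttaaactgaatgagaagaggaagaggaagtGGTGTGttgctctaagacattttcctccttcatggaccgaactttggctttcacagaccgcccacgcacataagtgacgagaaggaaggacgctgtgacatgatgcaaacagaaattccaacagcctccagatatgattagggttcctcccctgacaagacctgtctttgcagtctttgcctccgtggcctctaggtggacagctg
Each of these 3 windows holds 1 match, in the same surrounding letters, at 96, 140 and 206 bases before the start of Bcl2a1d, Bcl2a1b and Bcl2a1c. Of 32851 promoter windows of the same length, 16.3% hold the motif. A STAT motif (TTCNNNGAA, 7.02% of windows) and a kappaB motif (GGG, 2 free bases, TT, 1 free base, CC; 4.11% of windows), sought on both strands and not overlapping the first, had no match in the 3 windows. These matches describe letters and not binding. The letters of the array probes were not at hand, so signal from Bcl2a1b and the other copies on the probes named Bcl2a1c and Bcl2a1d cannot be told apart from their own.

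Among the microRNAs that Dicer makes, a few are known from human cells to bind transcripts of this family: miR-15a and miR-16, which share a seed, and miR-34a for BCL2, and miR-29b for MCL1. Their mouse mature forms from RefSeq (GRCm38.p6) are printed with the seed, bases 2 to 8, in capitals, as examples of what Dicer makes.
mmu-miR-15a-5p: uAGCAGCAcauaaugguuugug
mmu-miR-16-5p: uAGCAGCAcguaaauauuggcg
mmu-miR-34a-5p: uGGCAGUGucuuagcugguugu
mmu-miR-29b-3p: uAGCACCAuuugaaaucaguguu
The arrays measured no microRNA, and matches of these seeds to mouse transcripts were not sought.

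Bcl2, the founding member, was strongly graded over the groups. Its brightest probe (ILMN_1249021) read 6.38, 6.15 and 5.58 log2 on the KO iNKT arrays, 8.07, 8.21 and 8.27 on the WT stage 3 arrays, 4.48, 5.25 and 5.48 on the WT stage 1-2 arrays, 8.32, 8.66 and 8.08 on the KO T arrays and 8.29, 8.84 and 8.07 on the WT T arrays. On this probe stage 3 and both T cell groups share one high range, KO iNKT cells lie below all of them without overlap, and WT stage 1-2 cells lie lowest. The probe was not detected on WT stage 1-2 replicate 1, whose dimmest detected probe read 5.21. The sizes of differences from stage 1-2 below thus include a value at background. In stage order among WT iNKT cells, Bcl2 was 8.65-fold higher in stage 3 than in stage 1-2 cells (log2 difference 3.11 ± 0.28 SE, adjusted p = 1.21e-06, limma with Benjamini-Hochberg adjustment over all 6838 genes). In KO iNKT cells it fell 4.43-fold relative to stage 3 (-2.15 ± 0.28, adjusted p = 2.49e-05). Relative to stage 1-2 every KO iNKT array was above every WT array, but the difference of 0.97 ± 0.28 did not pass (adjusted p = 0.072). It passed without KO iNKT replicate 3 (1.21, adjusted p = 0.0228) or WT stage 1-2 replicate 3 (1.13, adjusted p = 0.0397). With other arrays left out it was as low as 0.68, with adjusted p up to 0.256 in limma. Down the order of means (WT T 8.40, KO T 8.35, WT stage 3 8.18, KO iNKT 6.04, WT stage 1-2 5.07) the one step between neighbours that passed was from WT stage 3 to KO iNKT.

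**Figure D2:**
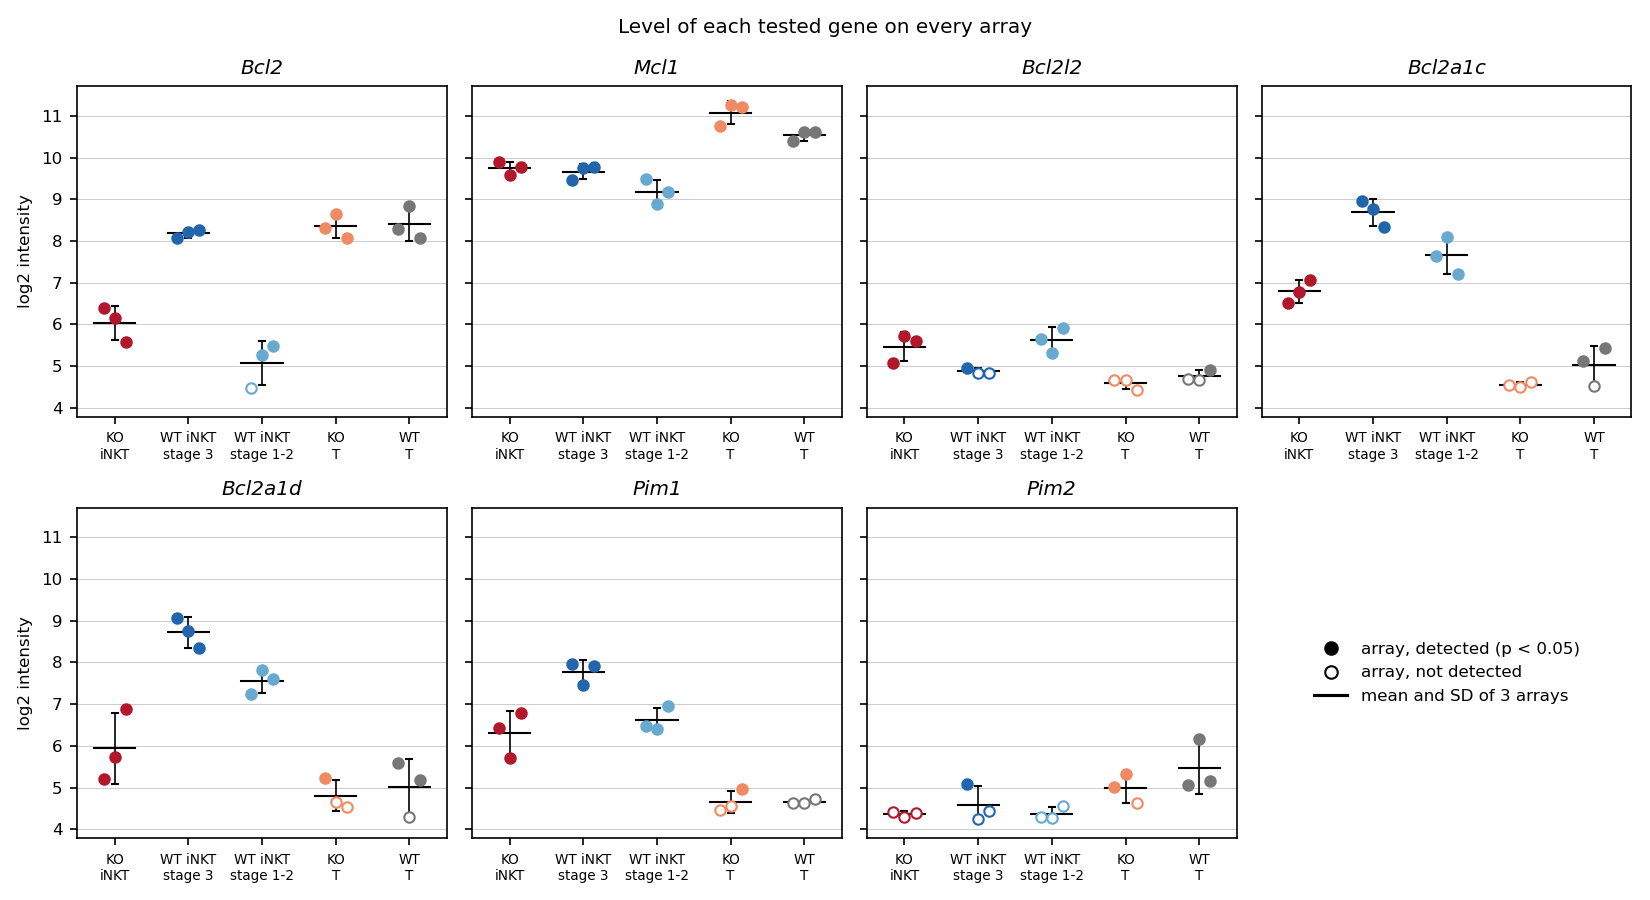
Log2 intensity (vertical axis) of the 7 tested genes on every array of the 5 groups (horizontal axis); filled points are detected, open points are not, and lines give the mean and SD of 3 arrays. Bcl2, Bcl2a1c, Bcl2a1d and Pim1 are high in WT stage 3 cells (means 8.18, 8.69, 8.72 and 7.77) and lower in KO iNKT cells (6.04, 6.79, 5.94 and 6.30), while Mcl1 is highest in T cells (11.08 in KO, 10.54 in WT).

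Bcl2 had 8 probes, of which 6 passed the detection filter, 3 of them annotated to one RefSeq transcript record and 3 to another. All 6 passed as lower in KO iNKT than in WT stage 3 cells (adjusted p from 4.35e-06 to 0.0389 over 8906 kept probes), with log2 differences of -2.21, -2.15 and -2.09 on the probes of the first record and -1.80 and -0.75 on 2 of the second. ILMN_2597567, the remaining one, was detected on 0 of 3 KO iNKT arrays, so its difference has no measured size. All 6 also passed as higher in WT stage 3 than in stage 1-2 cells, by 2.18 to 3.11 on the first record and by 1.39 on ILMN_2682162 of the second. ILMN_1215796 and ILMN_2597567 were detected on 0 of 3 stage 1-2 arrays. The sizes on the 2 records can therefore not be set against each other in these comparisons. Against WT T cells the probes of the 2 records parted. WT stage 3 cells differed from WT T cells by -0.21, 0.11 and -0.13 on the first record, none of which passed, and were lower by 1.16, 0.79 and 1.07 on the second, all of which passed (adjusted p = 0.0202, 0.0311 and 0.000587). This grouping of probes was noticed after their values were seen, and the difference between the records was not tested. Between KO iNKT and stage 1-2 cells the probes detected on at least 2 of 3 arrays of both groups gave 0.97 (ILMN_1249021), 1.01 (ILMN_1249366, adjusted p = 0.0233) and -0.42 (ILMN_2682162, adjusted p = 0.554), and the single one of these to pass was ILMN_1249366. The other 3 probes were detected on 0 or 1 of 3 stage 1-2 arrays, and no sign is read from them.

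**Figure D3:**
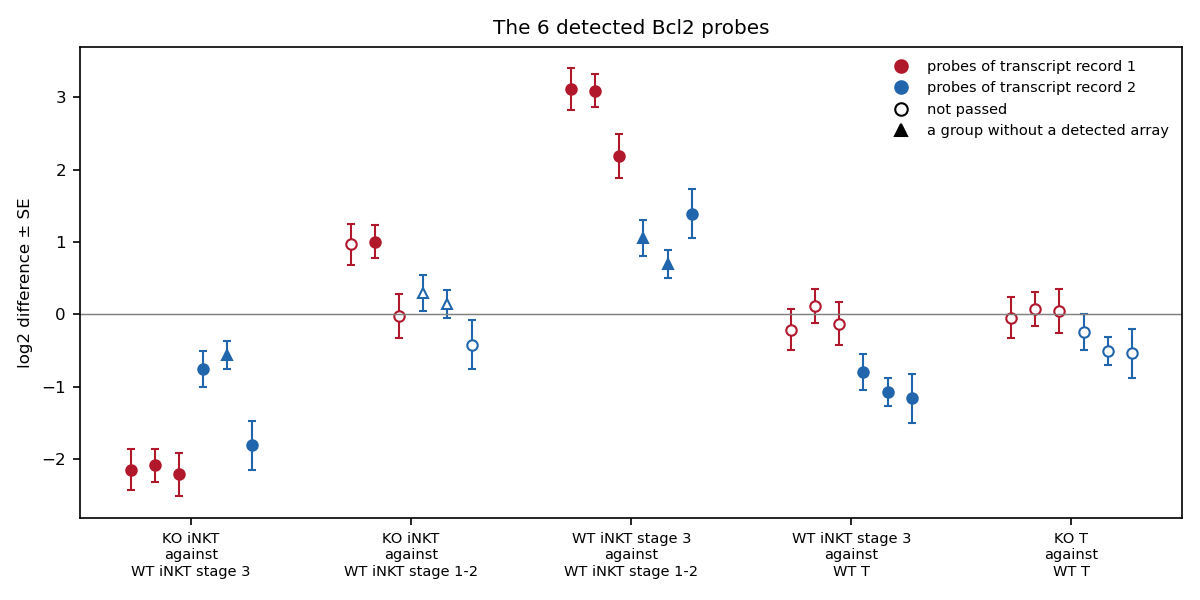
Log2 difference ± SE (vertical axis) of the 6 detected Bcl2 probes in 5 comparisons (horizontal axis), coloured by the RefSeq transcript record each probe is annotated to; filled symbols passed at an adjusted p under 0.05, and triangles mark comparisons in which 1 group had no detected array, whose size is not measured. In WT stage 3 against WT T cells the probes of record 1 lie between -0.21 and 0.11, and those of record 2 between -1.16 and -0.79.

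Bcl2a1d is one of the mouse genes for A1, a short-lived pro-survival protein that NF-kappaB induces in activated lymphocytes and myeloid cells. Bcl2a1c is a copy not thought to yield functional A1 in mouse, although RefSeq lists it as protein-coding; its annotated gene spans 444 bases, against 8563 for Bcl2a1d. The Bcl2a1d probe read 5.21, 5.74 and 6.88 log2 on the KO iNKT arrays, 9.07, 8.74 and 8.35 on the WT stage 3 arrays, 7.24, 7.82 and 7.60 on the WT stage 1-2 arrays, 5.22, 4.65 and 4.54 on the KO T arrays and 5.58, 4.30 and 5.18 on the WT T arrays. The 3 iNKT groups do not overlap, whereas the lowest KO iNKT array lies among the T cell arrays. Bcl2a1d was 6.86-fold lower in KO iNKT than in WT stage 3 cells (-2.78 ± 0.38, adjusted p = 3.63e-05, limma) and 3.05-fold lower than in WT stage 1-2 cells (-1.61 ± 0.38, adjusted p = 0.0263). The second of these calls was lost without KO iNKT replicate 1 (-1.25, adjusted p = 0.151), KO iNKT replicate 2 (-1.52, adjusted p = 0.091) or WT stage 1-2 replicate 2 (-1.47, adjusted p = 0.103). Over KO iNKT replicates 1, 2 and 3 the myeloid list averaged 12.07, 11.69 and 9.64, lowest where Bcl2a1d was highest. The plasmacytoid dendritic cell list rose in the order of Bcl2a1d (9.29, 9.35 and 9.77). The list of B cells and antigen-presenting cells averaged 10.43, 10.68 and 9.16. Double-positive thymocyte genes averaged 7.51, 7.57 and 6.92, and the iNKT list 7.41, 7.22 and 7.55. The T cell list averaged 8.49, 8.31 and 8.18, and the NK cell list, at or near background, 5.10, 4.60 and 4.40. The part of these other cells in the spread of Bcl2a1d was not tested.

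The Bcl2a1c probe read 6.52, 6.78 and 7.07 log2 in KO iNKT, 8.95, 8.77 and 8.33 in WT stage 3, 7.64, 8.10 and 7.21 in WT stage 1-2, 4.54, 4.50 and 4.62 in KO T and 5.12, 4.53 and 5.43 in WT T cells. All iNKT arrays were thus above all T cell arrays, and the order among the iNKT groups was that of Bcl2a1d. Bcl2a1c fell 3.73-fold in KO iNKT cells relative to stage 3 (-1.90 ± 0.27, adjusted p = 4.96e-05). Its difference from stage 1-2 of -0.86 ± 0.27 did not pass (adjusted p = 0.0885) although the arrays did not overlap. Without WT stage 1-2 replicate 3 it did (-1.08, adjusted p = 0.0337). With other arrays left out it shrank to as little as -0.63, with adjusted p up to 0.287 in limma. In WT iNKT cells the stage 3 level exceeded that of stage 1-2 for both probes, by 1.04 ± 0.27 for Bcl2a1c (adjusted p = 0.0114) and by 1.17 ± 0.38 for Bcl2a1d (adjusted p = 0.0377). The Bcl2a1c call was lost without WT stage 1-2 replicate 3 (0.82, adjusted p = 0.0548), and the Bcl2a1d call without stage 1-2 replicate 1 or 3 (1.01 and 1.19, adjusted p = 0.123 and 0.0699) or stage 3 replicate 1 or 2 (0.99 and 1.16, adjusted p = 0.115 and 0.087). Bcl2a1c was detected on no KO T array, and KO iNKT cells exceeded that group at least 3.89-fold, as the bound against the dimmest detected probes of each array (measured means 6.79 and 4.55; adjusted p = 5.81e-06).

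Pim1 followed the same order of iNKT groups. It read 6.42, 5.71 and 6.78 log2 in KO iNKT, 7.95, 7.45 and 7.92 in WT stage 3, 6.48, 6.40 and 6.96 in WT stage 1-2, 4.46, 4.55 and 4.96 in KO T and 4.62, 4.63 and 4.72 in WT T cells. KO iNKT arrays overlapped with stage 1-2 arrays and lay below all stage 3 arrays. Pim1 was 2.78-fold lower in KO iNKT than in WT stage 3 cells (-1.47 ± 0.26, adjusted p = 0.000428, limma), 1.24-fold lower than in stage 1-2 cells with no call (-0.31 ± 0.26, adjusted p = 0.569, 95% interval -0.86 to 0.24), and 2.24-fold higher in WT stage 3 than in stage 1-2 cells (adjusted p = 0.00438). A second Pim1 probe was detected on 3 of 15 arrays and was not tested.

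Pim2, a paralogue on the X chromosome, was at the edge of detection and highest on average in WT T cells. Its brightest probe was detected on 0 of 3 KO iNKT arrays (4.41, 4.28 and 4.39 log2), 1 of 3 WT stage 3 arrays (5.09, 4.24 and 4.43), 0 of 3 WT stage 1-2 arrays (4.29, 4.28 and 4.55), 2 of 3 KO T arrays (5.01, 5.33 and 4.62) and all 3 WT T arrays (5.05, 6.17 and 5.16). Of the WT iNKT stages, stage 1-2 was lower than WT T cells (-1.09 ± 0.29, adjusted p = 0.0103; WT T at least 1.45-fold higher), and so was stage 3 (-0.88 ± 0.29, adjusted p = 0.0349), though stage 3 and WT T arrays overlapped. Both calls leaned on single arrays: without WT T replicate 2 the differences were -0.75 (adjusted p = 0.074) and -0.53 (adjusted p = 0.201), and without WT T replicate 1 -0.63 (adjusted p = 0.123) and -0.73 (adjusted p = 0.0747). The stage 3 call was also lost without stage 3 replicate 2 (-0.72, adjusted p = 0.138) or 3 (-0.79, adjusted p = 0.0954). The probe passed the detection filter through WT T cells alone, so a call as high in WT T cells partly follows from the filter. No difference of Pim2 passed between iNKT groups.

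Mcl1, which thymocytes need throughout development, was the brightest of these probes. It read 9.88, 9.58 and 9.78 log2 in KO iNKT, 9.46, 9.75 and 9.78 in WT stage 3, 9.48, 8.88 and 9.17 in WT stage 1-2, 10.76, 11.26 and 11.21 in KO T and 10.39, 10.62 and 10.62 in WT T cells. Every T cell array was above every iNKT array. Mcl1 was 2.52-fold lower in KO iNKT than in KO T cells (-1.33 ± 0.21, adjusted p = 0.00011), and relative to WT T cells it was 1.84-fold lower in WT stage 3 and 2.58-fold lower in WT stage 1-2 cells (adjusted p = 0.00533 and 0.000125). Between KO iNKT and WT stage 3 cells the difference was 0.08 ± 0.21 (95% interval -0.36 to 0.53), and between KO iNKT and stage 1-2 cells 0.57 ± 0.21, with all KO arrays above the WT arrays and no call (adjusted p = 0.146).

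Bcl2l2, which encodes BCL-W, was dim in every group. It read 5.07, 5.72 and 5.60 log2 in KO iNKT, 4.96, 4.83 and 4.83 in WT stage 3, 5.66, 5.31 and 5.91 in WT stage 1-2, 4.67, 4.67 and 4.42 in KO T and 4.69, 4.67 and 4.92 in WT T cells. Its KO iNKT and stage 1-2 arrays overlapped and lay above the other 3 groups, the reverse of the Bcl2a1 and Pim1 order among WT stages. It was 1.50-fold higher in KO iNKT than in WT stage 3 cells (0.59 ± 0.21, adjusted p = 0.0452). The tested probe passed the detection filter through KO iNKT and stage 1-2 cells alone. With 1 of 3 stage 3 arrays detected, a call as lower in stage 3 partly follows from the filter. The 2 other probes of Bcl2l2 did not pass the filter. ILMN_2936517 was detected on 2 of 3 KO iNKT and 1 of 3 stage 3 arrays. ILMN_2601572 was detected on 0 of 3 KO iNKT arrays (4.32, 4.41 and 4.47) and 2 of 3 stage 3 arrays (4.96, 4.36 and 5.10), so that it does not repeat the order of the tested probe. The call was lost in 15 of the alternatives tried, among them the fit with replicate number as a block (adjusted p = 0.0607) and leaving out KO iNKT replicate 2 or 3 (adjusted p = 0.169 and 0.108) or any 1 WT stage 3 array (adjusted p = 0.0637, 0.0914 and 0.0972). In WT iNKT cells Bcl2l2 was lower in stage 3 than in stage 1-2 (-0.75 ± 0.21, adjusted p = 0.0193), and this no longer passed without WT stage 1-2 replicate 3 (-0.58, adjusted p = 0.0955) or WT stage 3 replicate 3 (-0.73, adjusted p = 0.0507). KO iNKT cells were at least 1.55-fold above KO T cells, which had no detected array (measured means 5.46 and 4.58; adjusted p = 0.0042).

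Counted together, 5 of the 7 tested genes passed in KO iNKT against WT stage 3 cells, where 29.9% of all genes did. Bcl2, Bcl2a1c, Bcl2a1d and Pim1 fell (14% of all genes did) and Bcl2l2 rose (16% did), and the median of the 7 log2 differences was -1.47, against -0.01 over all genes. Set against WT stage 1-2 cells, 1 of 7 passed, Bcl2a1d, which fell, against 3.01% of all genes in either direction and 1.05% that fell, with a median of -0.16 beside -0.01; without single arrays this count was 0 to 3. In WT stage 3 against WT stage 1-2 cells 5 of 7 passed, where 20.1% of genes did: Bcl2, Bcl2a1c, Bcl2a1d and Pim1 rose (9.11% of genes did) and Bcl2l2 fell (11% did), with a median of 1.04. This comparison shares the stage 3 arrays with the first and is no independent support for it. Without the 2 arrays of narrow range 2 of 7 passed in it, and without WT stage 1-2 replicate 3 also 2. Bcl2l2 passed the detection filter through KO iNKT and WT stage 1-2 cells alone. Its calls as lower in stage 3 thus partly follow from the filter. The markers of other cells listed above moved with these comparisons: 11 of 12 tested myeloid genes were higher in KO iNKT than in WT stage 3 cells and 10 of 12 were lower in WT stage 3 than in stage 1-2 cells, while 1 of 12 passed in KO iNKT against stage 1-2 cells. Klre1, an NK receptor, was lower in KO iNKT than in stage 3 cells, and Tbx21, which encodes the T-box factor T-bet, fell by 2.47. Klre1 and Klrb1c, the 2 tested NK cell genes, together averaged 4.70 in KO iNKT cells. The dimmest detected probes of those arrays read 4.80 to 4.87, so the Klre1 difference has no measured size.

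**Figure D4:**
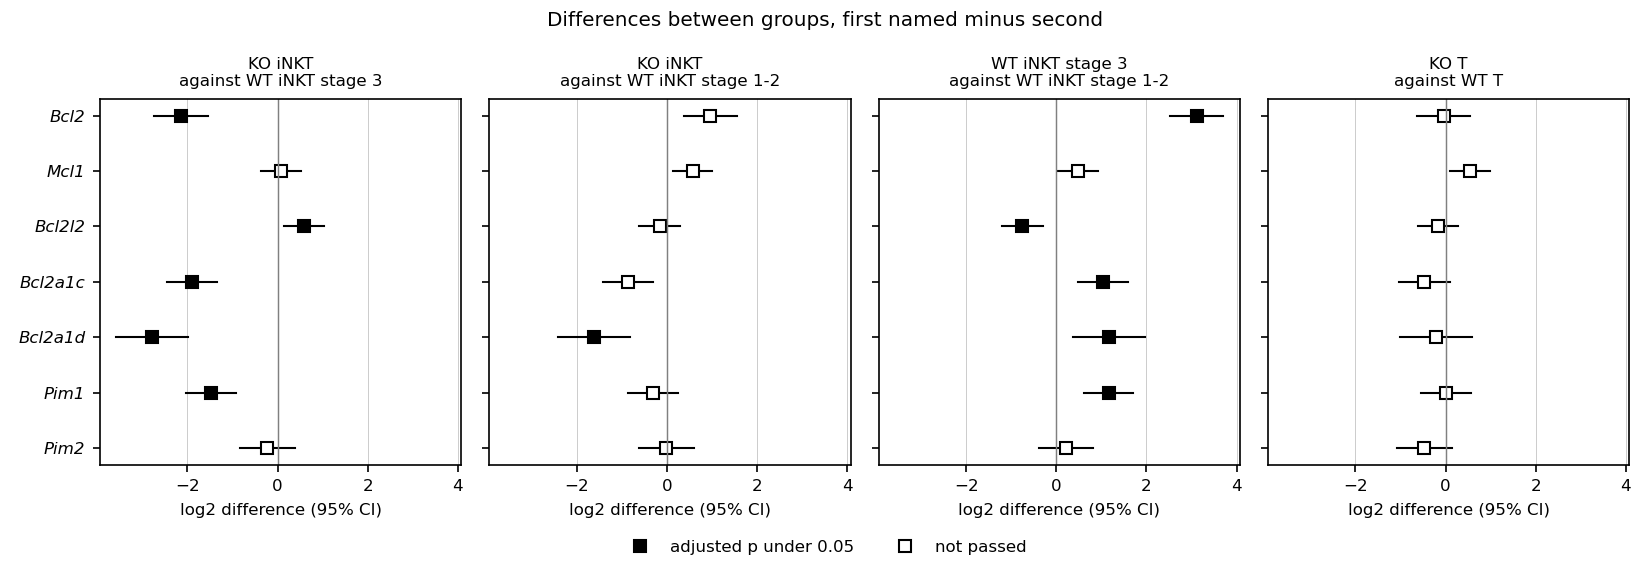
Log2 difference with its 95% confidence interval (horizontal axis) of the 7 tested genes (vertical axis) in 4 comparisons, the first named group minus the second; filled squares passed at an adjusted p under 0.05. In KO iNKT against WT stage 3 cells 4 genes lie at -1.47 or below, and in KO T against WT T cells none passed.

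In T cells the loss of Dicer moved none of the 7 past the threshold in limma, where 0.146% of all genes passed. Unadjusted p was under 0.05 for 1 of the 7, a count not taken over all genes. That gene was Mcl1, at 0.54 ± 0.21 (adjusted p = 0.442), with every KO T array above every WT T array. For the genes that fell in KO iNKT relative to stage 3 cells, the KO T minus WT T differences were -0.05 for Bcl2 (95% interval -0.64 to 0.55), -0.47 for Bcl2a1c (-1.04 to 0.09), -0.22 for Bcl2a1d (-1.01 to 0.58) and 0.01 for Pim1 (-0.54 to 0.55), the last 3 being differences of values at or near background. Intervals of this width do not show that the levels were alike.

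The difference of the KO effects between iNKT and T cells was tested directly. With stage 3 as the iNKT reference, 4 of 7 passed, all lower, against 17.5% of all genes in either direction and 7.75% lower: Bcl2 (-2.10 ± 0.40, adjusted p = 0.00173), Bcl2a1c (-1.42 ± 0.38, adjusted p = 0.0153), Bcl2a1d (-2.56 ± 0.54, adjusted p = 0.00357) and Pim1 (-1.48 ± 0.37, adjusted p = 0.0108). Of these, only Bcl2 was detected on all T cell arrays. Pim1 was detected on 1 of 3 KO T and 0 of 3 WT T arrays, Bcl2a1c on 0 of 3 and 2 of 3, and Bcl2a1d on 1 of 3 and 2 of 3. These 3 genes thus had little or no room to fall in T cells, and their test does not compare a loss measured in both cell types. For Bcl2 the call held on the probes of the first transcript record (-2.10, -2.16 and -2.25). No probe of the second record passed in limma over 8906 probes. They gave -1.27 on ILMN_2682162 (adjusted p = 0.0786), -0.51 on ILMN_1215796 (adjusted p = 0.349) and -0.04 on ILMN_2597567 (adjusted p = 0.933). With stage 1-2 as the reference, 0 of 7 passed in limma, against 0.175% of all genes. Unadjusted p was under 0.05 for 2 of 7, a count not taken over all genes. Bcl2 gave 1.01 ± 0.40 and Bcl2a1d -1.40 ± 0.54. The outcome thus turns on which WT stage the unsplit KO iNKT cells are set against.

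The iNKT groups also differed from conventional T cells. In these comparisons Bcl2a1c, Bcl2a1d, Bcl2l2 and Pim1 passed the detection filter through iNKT groups alone and Pim2 through WT T cells alone. The counts below thus partly follow from the filter and are given as a description. In WT stage 3 against WT T cells 5 of 7 passed, where 23.1% of genes did, 10.6% higher and 12.5% lower. Bcl2a1c and Bcl2a1d rose, 12.6-fold and 13.0-fold, and Pim1 was at least 7.07-fold higher than in WT T cells, where it was detected on 0 of 3 arrays (measured means 7.77 and 4.65), while Mcl1 and Pim2 fell. In WT stage 1-2 against WT T cells all 7 passed, where 23.4% did, 11.5% higher and 11.9% lower. Bcl2a1c and Bcl2a1d were 6.16-fold and 5.78-fold higher, Pim1 at least 3.16-fold higher and Bcl2l2 1.83-fold higher, and Bcl2 was lower by 3.33 ± 0.28 log2. Bcl2l2 was detected on 1 of 3 WT T arrays. Its WT T mean of 4.76 lay below the dimmest detected probes there (4.80 to 5.07), so its fold is a difference from background. At stage 3 the brightest Bcl2 probe differed from WT T cells by -0.21 ± 0.28 (adjusted p = 0.641). The Bcl2 probes of the second transcript record passed as lower there (-1.16, -0.79 and -1.07). In KO iNKT against KO T cells 6 of 7 passed, where 32.9% did, 15.8% higher and 17.2% lower. Bcl2a1c, Bcl2a1d, Bcl2l2 and Pim1 were higher and Bcl2 and Mcl1 lower in KO iNKT cells. The Bcl2a1d call in it (1.14 ± 0.38, adjusted p = 0.0286) had overlapping arrays and was lost without KO iNKT replicate 3 (0.68, adjusted p = 0.158) or KO T replicate 2 or 3 (1.01 and 1.00, adjusted p = 0.0879 and 0.102).

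Other genes of the death and survival pathway were taken from lists of textbook membership. Among close relatives of the 9 genes, Pim3, the remaining PIM kinase, was the single one tested of 3 listed. It fell by 2.25 ± 0.21 in KO iNKT relative to stage 3 cells (adjusted p = 7.7e-07), rose by 1.79 ± 0.21 in WT stage 3 relative to stage 1-2 cells and by 3.36 ± 0.21 relative to WT T cells, and gave 0.09 ± 0.21 in KO T against WT T cells. Of 11 pro-apoptotic BCL2 genes 6 were tested. Relative to stage 3 (14% of all genes fell and 16% rose), 1 fell and 0 rose in KO iNKT cells, namely Bcl2l11, which encodes BIM, the BH3-only antagonist of BCL2, MCL1 and A1. It averaged 7.67 ± 0.09 in KO iNKT, 9.03 ± 0.18 in WT stage 3, 7.57 ± 0.54 in WT stage 1-2, 7.48 ± 0.17 in KO T and 7.39 ± 0.26 in WT T cells (-1.36 ± 0.24, adjusted p = 0.00045). Bcl2l11 was thus high in the same group as Bcl2a1c, Bcl2a1d and Pim1. In WT stage 3 against WT T cells 3 of 6 rose, where 10.6% of all genes did: Bcl2l11 (1.64), Bik (0.91) and Bid (0.99). Bik and Bid averaged 4.48 and 4.76 in WT T cells, below the dimmest detected probe of each WT T array (4.80 to 5.07). Their sizes are thus differences from background. Both passed the detection filter through iNKT groups alone, so this count partly follows from the filter. No gene of the 6 passed in KO iNKT against stage 1-2 cells (median 0.06) or in KO T against WT T cells (median -0.10). Of all genes 3.01% and 0.146% passed there, so a count of 0 says little about these 6. None of them had an unadjusted p under 0.05 in limma.

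Of the 16 listed genes of cytokine receptors, JAKs, STATs and their feedback inhibitors 11 were tested. Relative to stage 3, 7 fell and 1 rose in KO iNKT cells, where 14% of all genes fell and 16% rose, with a median of -0.86 against -0.01 over all genes. The 3 with the smallest adjusted p were Il2rb, the receptor chain shared by IL-2 and IL-15 (-2.30 ± 0.29), Socs3 (-1.52 ± 0.23) and Jak3 (-1.30 ± 0.22). Relative to stage 1-2, where 3.01% of all genes passed, 1 of 11 did, Jak3 (-0.94 ± 0.22, adjusted p = 0.027). In KO T against WT T cells, where 0.146% of all genes passed, 1 of 11 did, Socs3, a feedback inhibitor of cytokine signalling, which rose by 1.59 ± 0.23 (adjusted p = 0.0078). In WT stage 3 against stage 1-2 cells 6 rose and 0 fell, where 9.11% of all genes rose and 11% fell, led by Il2rb (2.36), Socs3 (1.60) and Il7r (1.12). Of 9 tested NF-kappaB genes 4 fell in KO iNKT relative to stage 3 cells and 0 rose, against 14% and 16% of all genes, the 3 with the smallest adjusted p being Tnfaip3, which encodes the inhibitor A20 (-2.10 ± 0.28), Nfkbia, which encodes IκBα (-1.25 ± 0.32), and Rela (-0.64 ± 0.20). Relative to stage 1-2, 0 of 9 passed in limma and 0 had an unadjusted p under 0.05, with a median of -0.02.

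Of 9 tested caspases, apoptosome genes and their inhibitors, 1 passed in KO iNKT against stage 3 cells, where 29.9% of all genes did. It was Birc5, which encodes survivin and is expressed mainly in dividing cells (2.57 ± 0.35). Relative to stage 1-2 cells, where 3.01% of all genes passed, 0 of the 9 did (median 0.05), and 1 had an unadjusted p under 0.05 in limma. Birc5 fell by 2.52 and Birc2 rose by 0.75 in WT stage 3 relative to stage 1-2 cells. Casp8 was lower than in T cells in each iNKT group: by 1.31 in KO iNKT against KO T, and by 0.78 and 1.20 in WT stage 3 and stage 1-2 against WT T cells. Of 8 tested genes of PI3K, AKT and PIM targets, Foxo1, whose protein AKT expels from the nucleus, was lower by 2.43, 2.68 and 2.50 in the same 3 comparisons. Relative to stage 3, 3 of the 8 rose and 2 fell in KO iNKT cells, against 16% and 14% of all genes, and the 3 with the smallest adjusted p were Pik3r1 (-0.93), Pik3cd (-0.92) and Eif4ebp1 (1.12).

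The genes whose levels ran most like 3 of the members over the 15 arrays were named by Pearson correlation, as a description, since these points share groups and other-cell content. For Bcl2 they were Nod1 (r = 0.951), Itm2a (0.946), Gimap3 (0.936), Gimap1 (0.930) and Max (0.925). For Bcl2a1d they were Cd82 (0.967), F2r (0.958), Bmp7 (0.948), Rab4a (0.946) and Pim3 (0.943). For Pim1 they were Tnfaip3 (0.975), Osbpl3 (0.970), Crem (0.970), Gadd45b (0.969) and Trf (0.967).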

How the data were processed

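Gene expression was measured on 15 arrays, 3 in each of 5 groups taken from the sample titles. The authors deposited a non-normalized table of linear probe intensity with detection p-values, and GenomeStudio is the tool in the submitters' processing notes (version not given in the sources used here). A second deposited table holds intensity values normalized between arrays by the authors and served as an alternative. From the first table, neqc in limma 3.58.1 (R 4.3.3, offset 16) gave background-corrected, quantile-normalized log2 values. Of 25697 probes 23978 carried 1 gene symbol, 0 carried several and 1719 had none.

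A probe was kept where all 3 arrays of some group detected it (p under 0.05), and the brightest kept probe stood for its gene. One limma fit with a mean per group over the 15 arrays (10 residual degrees of freedom) gave every contrast, with Benjamini-Hochberg adjustment over 6838 genes and a threshold of 0.05, two-sided. A gene on no detected array of the dimmer group is given as a lower bound on the fold. The number of arrays limits the precision. The genes and lists were chosen with earlier results of these data known. All members were named, and of each pathway list up to 3 genes with the smallest adjusted p among those that passed; Klre1 and Tbx21 were named after their values were seen. The fit was tested on simulated data. Sequences are RefSeq's; figures used Python 3.11.15, numpy 2.4.6 and matplotlib 3.10.9, and alignments Biopython 1.88. Replicate numbers are shared by the groups, but of 30 same-number pairs 3 deviated together with a correlation over 0.1 (range -0.233 to 0.481), so they were not taken to pair the samples. Alternatives were other normalizations, filters and fits, and each array left out.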

Additional observations from a re-analysis of the deposited data

Results flagged for a closer look

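With WT stage 3 as the iNKT reference, the difference between the KO effects in iNKT and T cells passed its own test for 4 of the genes. On the log2 scale the difference was -2.10 for Bcl2, -1.42 for Bcl2a1c, -2.56 for Bcl2a1d and -1.48 for Pim1. In KO iNKT against WT stage 3 cells these genes moved by -2.15, -1.90, -2.78 and -1.47, and in KO T against WT T cells by -0.05, -0.47, -0.22 and 0.01. Bcl2 was the one detected on all T cell arrays. Its difference passed on the probes of the first transcript record and on no probe of the second. Bcl2a1c was detected on 0 of 3 KO T and 2 of 3 WT T arrays, Bcl2a1d on 1 and 2, and Pim1 on 1 and 0, so for these 3 a loss in T cells could hardly be measured. With WT stage 1-2 as reference the same differences were 1.01, -0.39, -1.40 and -0.32, and none passed (adjusted p = 0.45, 0.817, 0.434 and 0.853, limma). The sort took KO iNKT cells of every stage together, so stage makeup and the deletion cannot be told apart in either version.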

How the results depend on the processing

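No called difference of a member changed sign in any alternative: of 675 values under other settings 613 stayed on their side of the threshold, 59 no longer passed and 3 newly passed, and of 511 values without 1 array 478, 29 and 4 did. The number of members past the threshold moved most with the scaling. With median scaling over probes detected on all arrays it was 0 in place of 1 in KO iNKT against WT stage 1-2, 1 in place of 5 in WT stage 3 against stage 1-2, and 1 in place of 4 for the difference of the KO effects with stage 3; it was 4 in place of 5 in KO iNKT against stage 3 (without Bcl2l2), 5 in place of 7 in stage 1-2 against WT T (without Bcl2l2 and Pim2) and 4 in place of 5 in stage 3 against WT T (without Pim2). With the median over all probes, chosen after seeing the data, it was 2 in place of 5 in KO iNKT against WT stage 3, 2 in place of 6 in KO iNKT against KO T, 0 and 1 in the first and second of the comparisons just named, 2 in place of 7 and 3 in place of 5 in WT stage 1-2 and stage 3 against WT T, and 0 in place of 4 for the difference of effects. That scaling shifted the median of all genes by up to -0.66 (KO iNKT against KO T), and the first by up to 0.30, so single differences under it are relative to those shifts; the cause was not tested. In KO iNKT against stage 1-2, array weights gave 4, and no detection filter or the compared groups alone gave 0. In WT stage 3 against stage 1-2, array weights gave 3, and leaving out the 2 arrays of narrow range, chosen after seeing the data, gave 2. With 1 array left out the counts ranged from 0 to 3 in KO iNKT against stage 1-2, 4 to 5 against stage 3, 5 to 6 against KO T, 2 to 5 between WT stages, 6 to 7 and 4 to 5 in stage 1-2 and stage 3 against WT T, and 4 to 5 for the difference of effects with stage 3. In KO T against WT T cells and for the difference with stage 1-2 the count was 0 under every alternative run. The replicate block, used although the numbers do not pair the samples, gave 4 in place of 5 in KO iNKT against WT stage 3, where Bcl2l2 (0.59, adjusted p = 0.0607) was lost, and changed no other member's call. Signal near background limits Pim2, Bcl2l2, Bcl2l1 and, in T cells, Pim1 and both Bcl2a1 probes.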
